A study of Mus musculus with 2 samples.

Results

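The cells described here are mouse intestinal fibroblasts of the type that carries matrix Gla protein (Mgp) and little Ptgs2, the gene of the inducible prostaglandin-producing enzyme cyclooxygenase-2. A barcode was kept where it held at least 300 detected genes and at least 2000 unique molecular identifiers (UMIs, each a tag for 1 captured transcript), with at most 20% of its UMIs from mitochondrially encoded genes. It was called a fibroblast where the UMIs of Col1a1, Col1a2, Col3a1, Sparc and Dcn together outnumbered those of the epithelial genes Epcam, Krt8, Krt18, Krt19 and Cldn7. A fibroblast was called Mgp-type where Mgp, Lox and Mfap5 together held at least as many UMIs as Grem1, Rspo3, Ccl7, Hsd11b1 and Cxcl5, and it was kept here where Ptgs2 made up less than 0.05% of its UMIs. The cells were thus selected on the measured counts of these rule genes, which are given below as a description. In all 212 cells met these conditions, of 511 fibroblasts and of 1899 barcodes past the filters (2507 barcodes in the files). The other Mgp-type cells, 171 with Ptgs2 at or above that limit, and the 128 Grem1-type fibroblasts serve below as the nearest comparisons.

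The cells came from co-cultures of fibroblasts and crypts of small intestine, taken from C57BL6 mice at an age of 10 weeks and grown in Organoid Growth Media and released with trypsin and EDTA. In the Ptger4-ON library the co-cultures received the vehicle DMSO and the epithelium grew as spheroids. In the Ptger4-OFF library they received ONO-AE3-208, an inhibitor of the prostaglandin E2 receptor EP4 (gene Ptger4), at 10 µM on alternate days, and the epithelium grew as budding organoids. Both libraries were made with Drop-seq, a droplet method that captures the 3′ ends of polyadenylated RNA, each from 1 pool of 6 cultures. With 1 library per condition no difference could be tested. All intervals below are therefore exact 95% counting intervals, which cover neither the spread between cultures nor that between library preparations. Those of CPM and of ratios take UMIs as independent and leave out the spread between cells as well. They are too narrow for genes that vary between cells. At equal depth per cell the variance of Mgp was 26.1 times its mean and that of Acta2 5.01 times. Values are UMIs per 1000000 (CPM) of the summed UMIs of the cells in a class and are given with Ptger4-ON first and Ptger4-OFF second. The 78 cells of Ptger4-ON held 573205 UMIs (median 6194 per cell) and the 134 cells of Ptger4-OFF held 808482 (median 5584.5), with median mitochondrial shares of 1.13% and 1.34%. A single barcode sequence occurred in both libraries among all barcodes and none did among these cells.

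Fibroblasts build the extracellular matrix from fibrillar collagens, which are cross-linked by lysyl oxidase (Lox), from elastic microfibrils and from matricellular proteins that tune adhesion. When they take on a contractile state they add smooth-muscle actin (Acta2), transgelin (Tagln) and tropomyosins, genes that transforming growth factor beta and serum response factor are known to drive. Prostaglandin E2 made through cyclooxygenase-2 acts on EP4, a receptor that raises cyclic AMP, and Mgp keeps matrix from mineralising.

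The genes that mark these cells were present in both libraries and at most 11.3 CPM in the epithelial barcodes. Mgp, which the rule used, held 3301 CPM in Ptger4-ON and 4846 CPM in Ptger4-OFF, and the other rule genes Lox and Mfap5, a microfibril component, held 3027 and 2799 CPM and 757 and 589 CPM. Periostin (Postn), a matricellular protein outside the rule, held 2343 and 2182 CPM. Timp1, an inhibitor of matrix metalloproteinases, held 2116 and 2121 CPM, and fibulin-2 (Fbln2), a basement-membrane and microfibril protein, held 1567 and 1827 CPM. After each cell was thinned to 2000 UMIs, Fbln2 was detected in 94.9% of cells (95% interval 87.4 to 98.6) in Ptger4-ON and 94.0% (88.6 to 97.4) in Ptger4-OFF, against 0.907% and 0.950% of the epithelial barcodes. Lox was detected in 92.3% and 91.0% of the thinned cells, whereas Mgp was detected in 65.4% and 73.9%, so the gene that names the class was not detected in the rest of it at that depth. Markers of other cells were low. The epithelial markers summed to 424 and 219 CPM, higher in Ptger4-ON, and 3 cells of Ptger4-ON and 0 of Ptger4-OFF held more than 1 epithelial UMI per 5 fibroblast UMIs; the part of epithelial RNA in the differences between the libraries was tested only by leaving out such cells, which is given with the other alternative settings. The pericyte, endothelial, leukocyte, glial, mesothelial and Cajal-cell lists each summed to at most 20.9 CPM, with Mcam, Vwf, Ptprc, Kit and Ano1 at 0 UMIs. The smooth-muscle list summed to 216 and 236 CPM, mainly Actg2 (enteric smooth-muscle actin), with Des at 0 UMIs and Myh11 at 3 and 7 UMIs. The adipocyte list summed to 99.4 and 95.2 CPM, mainly lipoprotein lipase (Lpl), with Adipoq at 0 UMIs.

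The class is a range cut from counts per cell, and many of its cells lie near the Ptgs2 limit. The median cell held 1 Ptgs2 UMI in each library, against 9 and 5 in the high-Ptgs2 class, and 34 of 78 and 65 of 134 cells held 0. Between 0.025% and the limit of 0.05% lay 27 and 43 cells, and between the limit and 0.1% lay 31 and 43 cells of the high-Ptgs2 class. The highest share inside the limit was 0.0494% in Ptger4-ON and 0.04996% in Ptger4-OFF, and the lowest outside it was 0.0505% and 0.0514%. The cut against the Grem1-type genes was sharper: the median cell held 37 and 31 UMIs of the Mgp-side genes and 4 and 5 of the Grem1-side genes, and 6 and 4 cells lay within 2 UMIs of that cut. In Grem1-type cells the medians were 9.5 and 6 against 42.5 and 22. The class made up 35.8% of the 218 fibroblasts in Ptger4-ON (95% interval 29.4 to 42.5) and 45.7% of the 293 in Ptger4-OFF (39.9 to 51.6). Among Mgp-type cells alone it made up 48.1% of 162 (40.2 to 56.1) and 60.6% of 221 (53.9 to 67.1). These shares follow directly from Ptgs2 and the other rule genes and are a description.

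A single barcode of Ptger4-ON met the rule with 0 UMIs on both sides of the Mgp and Grem1 cut and 4 fibroblast against 3 epithelial UMIs. It held 251 UMIs of lysozyme 1 (Lyz1) and 592 of the defensin Defa24, products of Paneth cells, the antimicrobial secretory cells of the crypt. That barcode gave 96.2% of the cells' Lyz1 UMIs in Ptger4-ON, 96.7% of those of Defa22 and 92.8% of those of Defa24. Lyz1 was therefore at 455 and 12.4 CPM with the barcode and at 17.8 and 12.8 CPM under a strict form of the rule that drops ties. Defa22 was at 106 and 1.24 CPM with it and at 3.55 and 1.28 CPM under the strict rule. The barcode also gave 73.7% of the Spink4 UMIs in Ptger4-ON. Spink4 was still at 88.8 and 16.6 CPM under the strict rule, so its higher level in Ptger4-ON did not rest on this barcode alone. Defensin genes have near-identical copies, so the split of reads among them is uncertain.

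Collagen transcripts were somewhat higher in Ptger4-ON. Of the 21 collagen genes listed, 15 reached the minimum of 50 UMIs over both libraries, 1 was at least 1.5-fold higher in Ptger4-ON and 0 in Ptger4-OFF. Among all 4687 genes that reached that minimum in these cells, 5.31% were at least 1.5-fold higher in Ptger4-ON and 5.97% in Ptger4-OFF, with a median log2 ratio (Ptger4-OFF over Ptger4-ON, with 0.5 UMI added) of 0.024. The median log2 ratio of the collagens was -0.22, and their summed level was 19872 and 18102 CPM. The sum was also higher in Ptger4-ON in the high-Ptgs2 class, at 19782.5 and 17493.6 CPM, and in Grem1-type cells, at 19074 and 18707 CPM. Col1a1, a chain of fibrillar type I collagen, was at 2751 and 1977 CPM, 1.39-fold (counting interval 1.30 to 1.49) higher in Ptger4-ON. Its partner chain Col1a2 was at 7898 and 7060.1 CPM, and Col3a1 of type III collagen was at 4712 and 5137 CPM, so the fibrillar chains did not share a direction. The gene past the fold was Col11a1, a minor fibrillar chain that regulates fibril diameter, at 76.8 and 33.4 CPM, 2.299-fold (counting interval 1.39 to 3.86) higher in Ptger4-ON. The basement-membrane chains Col4a1 and Col4a2 were at 635 and 463 CPM and at 454 and 372 CPM. Col5a2, which joins type I fibrils, was at 1399 and 1199.8 CPM, while Col6a1 and Col8a1, of microfibrillar and short-chain collagens, were at 249 and 269.6 CPM and at 618 and 632 CPM.

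**Figure D1:**
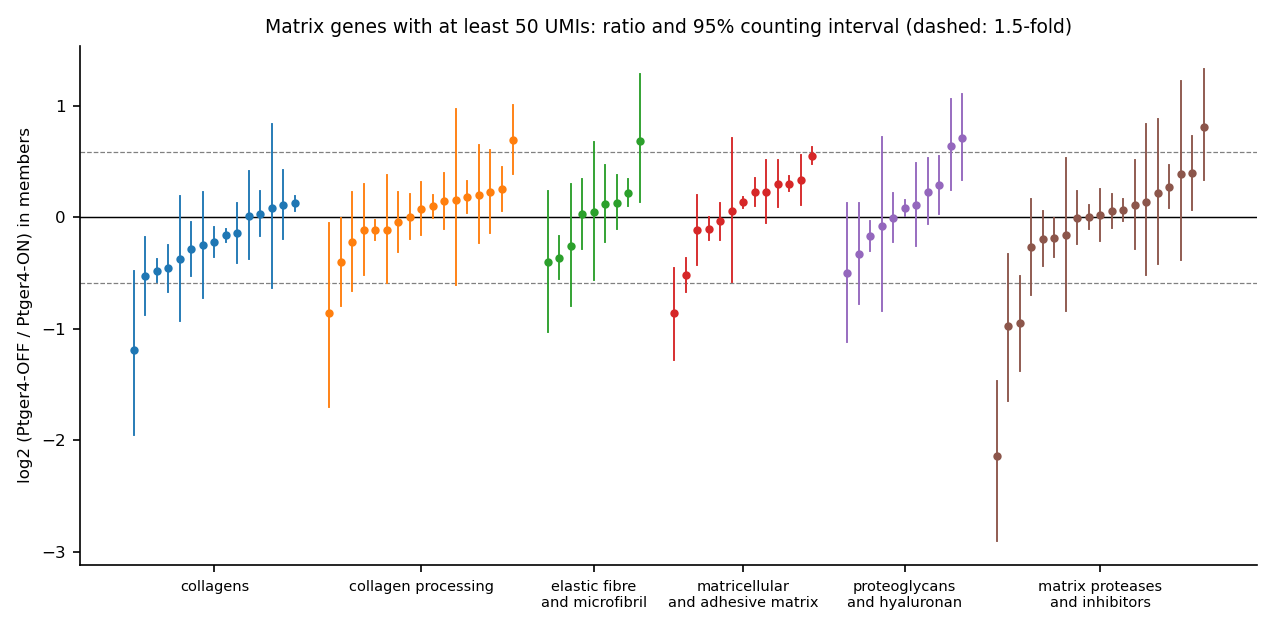
Log2 ratio of Ptger4-OFF over Ptger4-ON in the 212 cells for every gene with at least 50 UMIs in 6 lists of matrix genes, with points for genes and bars for the 95% counting interval; dashed lines mark 1.5-fold. The collagens sit mostly below 0 (median -0.22), and the other lists centre near 0, with single genes past the lines on either side.

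The enzymes and accessory proteins that process collagen lay on both sides. Of 17 measured genes, 1 was past the fold in each direction: Pcolce, an enhancer of procollagen cleavage, was at 223 and 361 CPM, 1.62-fold (counting interval 1.31 to 2.01) higher in Ptger4-OFF, and P4ha3, a prolyl hydroxylase subunit, was at 54.1 and 29.7 CPM, higher in Ptger4-ON. Of 9 elastic-fibre and microfibril genes the single one past the fold was fibulin-5 (Fbln5), an organiser of elastic fibres, at 66.3 and 108 CPM. The fibrillins Fbn1 and Fbn2 were at 405 and 444 CPM and at 202 and 220.2 CPM. Among 11 proteoglycan and hyaluronan genes, 2 were at least 1.5-fold higher in Ptger4-OFF and 0 in Ptger4-ON. Versican (Vcan), a large hyaluronan-binding proteoglycan, was at 145 and 237 CPM, 1.64-fold (counting interval 1.26 to 2.15) higher, and osteoglycin (Ogn) was at 133 and 208 CPM, 1.57-fold (counting interval 1.19 to 2.08) higher. The more abundant small proteoglycans decorin (Dcn), biglycan (Bgn) and lumican (Lum), which bind collagen fibrils, were at 4616 and 4894 CPM, at 1418 and 1263 CPM and at 338 and 413 CPM, all within 1.5-fold. The Ogn ratio did not hold its direction, with a log2 ratio of 0.64 here and -0.33 at a Ptgs2 limit of 0.02%, and Fbln5 was at 0.11 after thinning to 2000 UMIs. With Mgp-side genes at least 3 times the Grem1-side genes, Vcan and Pcolce were just under 1.5-fold, at log2 ratios of 0.53 and 0.56, and Vcan was at 0.51 with equal weight per cell.

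Matricellular genes, whose proteins modulate adhesion rather than bear load, had a median log2 ratio of 0.13 over 13 measured genes. Sparc, a collagen-binding glycoprotein used by the fibroblast rule, was at 9359.6 and 10265 CPM, fibronectin (Fn1) at 929.9 and 907 CPM and thrombospondin-1 (Thbs1) at 508 and 625 CPM. Osteopontin (Spp1) was at 1408 and 1645 CPM, with 33.6% and 20.4% of its UMIs from the single richest barcode of each library. The gene past the fold was Ctgf, a target of YAP and serum response factor, at 202 and 111 CPM, 1.82-fold (counting interval 1.37 to 2.42) higher in Ptger4-ON, with 20.7% of its Ptger4-ON UMIs in 1 barcode. Tenascin-C (Tnc), a glycoprotein of remodelling matrix, was at 1221 and 855 CPM, 1.43-fold (counting interval 1.28 to 1.59) higher in Ptger4-ON. The related Cyr61 was at 441 and 555 CPM, on the opposite side from Ctgf. At a Ptgs2 limit of 0.02%, which keeps 47 and 81 cells, the log2 ratio of Ctgf was -0.0021 in place of -0.86.

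Of 19 measured proteases and inhibitors, 3 metalloproteinases were at least 1.5-fold higher in Ptger4-ON and 1 protease in Ptger4-OFF. Stromelysin-1 (Mmp3) was at 194 and 100.2 CPM, 1.93-fold (counting interval 1.44 to 2.61) higher in Ptger4-ON, and the related Mmp10 was at 85.5 and 43.3 CPM. The gelatinase Mmp9 was at 127 and 28.4 CPM, but 1 barcode held 74% of its Ptger4-ON UMIs, and without the richest barcode of each library it was at 33.9 and 15.0 CPM. Adamts1, a protease of versican, was at 85.5 and 151 CPM, 1.77-fold (counting interval 1.26 to 2.51) higher in Ptger4-OFF. The membrane-anchored metalloproteinase Mmp14 and the lysosomal protease cathepsin L (Ctsl) were at 468 and 474 CPM and at 2633 and 2753 CPM, and the inhibitors Timp2 and Timp3 at 618 and 747 CPM and at 871 and 767 CPM. The metalloproteinase ratios depended on which cells were kept: the log2 ratio of Mmp3 was -0.21 in cells with at least 4000 UMIs in place of -0.95, that of Mmp10 was 0.38 in place of -0.98 where Mgp-side genes held at least 3 times the Grem1-side UMIs, and that of Mmp9 was -0.26 in place of -2.14 without barcodes that end in an uncalled base or pair with a deeper one.

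The activin subunit Inhba and 3 regulators of its pathway were higher in Ptger4-ON. Of 14 measured genes in that list 4 were at least 1.5-fold higher in Ptger4-ON and 1 in Ptger4-OFF, and the median log2 ratio was -0.29. Inhba, the subunit of activin A, was at 506 CPM in Ptger4-ON and 192 CPM in Ptger4-OFF, 2.64-fold (counting interval 2.16 to 3.23) higher in Ptger4-ON and at 396 and 162 CPM without the richest barcode of each library. Follistatin (Fst), which binds and blocks activin, was at 83.7 and 42.1 CPM, 1.99-fold (counting interval 1.26 to 3.19) higher in the same library. Pmepa1 and Skil, both induced by and acting against the pathway's Smad proteins, were at 335 and 169 CPM, 1.98-fold (counting interval 1.58 to 2.48) higher, and at 75.02 and 37.1 CPM, 2.02-fold (counting interval 1.24 to 3.34) higher. Tgfbr2, a receptor gene for transforming growth factor beta, was at 129 and 194 CPM, 1.504-fold (counting interval 1.13 to 2.01) higher in Ptger4-OFF. The activin receptor gene Acvr2a was at 40.1 and 45.8 CPM, within 1.5-fold. Pmepa1 was also higher in Ptger4-ON in epithelial barcodes, at 171 and 68.2 CPM. Inhba was also higher in Ptger4-ON in the high-Ptgs2 class, at 408 and 194 CPM, and in Grem1-type cells, at 336 and 232 CPM. Inhba kept at least 1.5-fold under all 18 alternative settings, whereas the log2 ratio of Pmepa1 was -0.39 at a Ptgs2 limit of 0.02%, those of Skil and Fst were -0.38 and -0.53 after thinning, that of Fst was -0.50 without cells in G2/M, and that of Tgfbr2 was 0.24 with equal weight per cell.

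Among contractile genes, smooth-muscle actin and transgelin were higher in Ptger4-ON and most others were level. Of the 25 genes listed 21 were measured, 2 were at least 1.5-fold higher in Ptger4-ON and 0 in Ptger4-OFF, and the median log2 ratio was -0.06. Acta2 (chromosome 19, 34241090 to 34255590, minus strand, GRCm38) was at 452 CPM in Ptger4-ON and 187 CPM in Ptger4-OFF, 2.42-fold (counting interval 1.97 to 2.98) higher in Ptger4-ON, and at 391 and 168 CPM without the richest barcode of each library. Tagln (chromosome 9, 45929619 to 45936058, minus strand), an actin-binding protein of contractile cells, was at 640.3 CPM in Ptger4-ON and 304 CPM in Ptger4-OFF, 2.10-fold (counting interval 1.79 to 2.48) higher. The tropomyosins, which stabilise actin filaments, did not share a direction: Tpm1 was at 1169 and 915 CPM, Tpm2 at 583 and 560.3 CPM and Tpm4 at 944 and 1219.6 CPM. Caldesmon (Cald1), an actin-linked regulator of contraction, was at 2266 and 2261 CPM, and the myosin light chain Myl9 and its kinase Mylk were at 161 and 178 CPM and at 71.5 and 68.0 CPM. Myh9, the non-muscle myosin heavy chain, was at 333 and 231 CPM. The focal-adhesion and actin-crosslinking genes Zyx, Flna and Actn1 were at 324 and 322 CPM, at 190.2 and 194 CPM and at 366 and 320.4 CPM. Most of the contractile apparatus was therefore within 1.5-fold, with Acta2 and Tagln apart from it, and these 2 kept at least 1.5-fold under all 18 alternative settings.

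**Figure D2:**
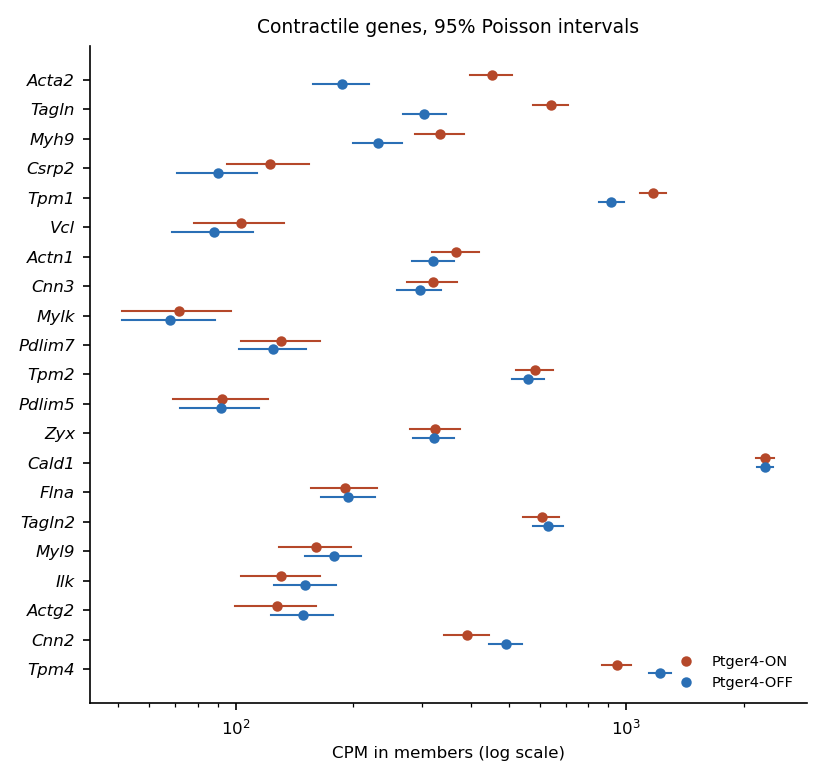
Level in CPM of the 21 measured contractile genes in the Ptger4-ON and Ptger4-OFF cells, with 95% Poisson counting intervals. Acta2 and Tagln are at 452 and 640.3 CPM in Ptger4-ON and at 187 and 304 CPM in Ptger4-OFF, while Cald1, Zyx and Flna have nearly the same level in both.

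Acta2 and Myl9 are shown here because both belong to the contractile list and carry matches to the CArG box, the sequence of 10 bases that serum response factor binds. Between the libraries Acta2 was past 1.5-fold and Myl9 was within it. The 250 bases before each gene's start site were read 5′ to 3′ from RefSeq promoters (build GRCm38.p6), and distances are from that start site. GENCODE starts both genes further upstream, so that 217 of the 250 bases of Acta2 and 44 of those of Myl9 lie inside the GENCODE genes. Capitals mark matches to the CArG box with at most 1 mismatch, a motif that reads the same on both strands.
Acta2 (chr19:34255374-34255623, minus strand): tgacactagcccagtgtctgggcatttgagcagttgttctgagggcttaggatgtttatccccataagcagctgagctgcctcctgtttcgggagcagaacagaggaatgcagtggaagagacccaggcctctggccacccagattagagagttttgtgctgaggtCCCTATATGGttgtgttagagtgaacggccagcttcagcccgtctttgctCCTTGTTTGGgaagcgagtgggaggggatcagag
Myl9 (chr2:156775214-156775463, plus strand): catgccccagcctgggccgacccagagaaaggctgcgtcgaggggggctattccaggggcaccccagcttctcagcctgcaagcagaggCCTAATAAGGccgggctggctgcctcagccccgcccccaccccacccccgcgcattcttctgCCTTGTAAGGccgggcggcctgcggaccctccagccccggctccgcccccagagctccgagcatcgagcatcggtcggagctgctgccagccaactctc
The Acta2 stretch holds 2 such matches and no exact one, the first in reading order beginning 84 bases before the start site, and the Myl9 stretch holds 2, of which 1 is exact and begins 161 bases before it. In windows of 300 bases around the start site, an exact CArG box occurred in 3 of 26 windows of the contractile genes (11.5%; Cnn2, Myl9 and Vcl) and in 535 of 32851 windows of all genes (1.63%). With up to 1 mismatch it occurred in 8 of 26 (30.8%) and in 6936 of all windows (21.1%). These matches are letters in a window and no binding was measured.

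Contractile transcripts were unevenly spread over the cells. Acta2 was detected in 28.2% of cells (95% interval 18.6 to 39.5) in Ptger4-ON and 21.6% (15.0 to 29.6) in Ptger4-OFF after thinning, against 0.454% and 0.106% of epithelial barcodes, and in 46.2% and 30.6% without thinning. Tagln was detected in 52.6% of cells (95% interval 40.9 to 64.0) in Ptger4-ON and 38.1% (29.8 to 46.8) in Ptger4-OFF, against 1.13% and 0.211% of epithelial barcodes. The summed share of 10 contractile genes (Acta2, Tagln, Myl9, Cnn1, Tpm1, Tpm2, Actg2, Cald1, Mylk and Csrp1) ran from 0 to 3.32% of a cell's UMIs in Ptger4-ON, with a median of 0.431%, and from 0.0475% to 1.87% in Ptger4-OFF, with a median of 0.420%. The medians were close, and the highest cell was in Ptger4-ON. The pooled sum of the 10 genes was 5516 and 4670.5 CPM, 1.18-fold (95% interval 1.13 to 1.24) higher in Ptger4-ON. Across cells the shares of Acta2 and Tagln had Spearman correlations of 0.54 over 78 cells and 0.47 over 134, where the cells of a library share that library and depth enters both measures.

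The cells of each library were ranked by that share and divided into low, middle and high groups of equal size (26, 26 and 26 cells in Ptger4-ON, and 45, 45 and 44 in Ptger4-OFF), and the values below are given in that order. The groups are ranges of 1 continuous score. The ranking used Acta2, which was at 15.7, 175 and 1127 CPM in Ptger4-ON and 19.3, 66.5 and 593 CPM in Ptger4-OFF, and Tagln, at 115, 328 and 1435 CPM in Ptger4-ON and 80.5, 179 and 800.3 CPM in Ptger4-OFF. Acta2 was higher in Ptger4-ON in the middle and high groups and Tagln in all 3, as a description of genes the ranking used. Median depth was 5868, 6194 and 6457 UMIs in Ptger4-ON but 6313, 6071 and 4269 in Ptger4-OFF, so the high group of Ptger4-OFF was the shallowest.

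Collagen did not follow the contractile share. The collagen list was at 19253, 18445 and 21785 CPM in Ptger4-ON and 17655, 19815 and 16453 CPM in Ptger4-OFF, and across cells the correlation of its share with the contractile share was 0.06 and -0.07. The log2 ratio of its high over its low group was 0.18 and -0.10, and it changed sign in both libraries, to -0.07 and 0.03, when cells were thinned to equal depth. The matricellular list was at 23464, 26979.8 and 24749.5 CPM in Ptger4-ON and 26527, 30304 and 28640.4 CPM in Ptger4-OFF, with its highest level in the middle group of each library. Elastic-fibre genes were at 3433, 3506 and 3866 CPM in Ptger4-ON and 3411, 4009.9 and 4096 CPM in Ptger4-OFF. Fibronectin was highest in the high group of both libraries, at 768, 961 and 1057 CPM in Ptger4-ON and 786, 795 and 1233 CPM in Ptger4-OFF.

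Targets of serum response factor and YAP, none of which entered the ranking, were higher in the high group, at 1061, 1338 and 2517 CPM in Ptger4-ON and 1407, 1699 and 1798 CPM in Ptger4-OFF. The list of transforming growth factor beta and activin genes was at 3359.5, 3271 and 4726 CPM in Ptger4-ON and 2882, 3001 and 3333 CPM in Ptger4-OFF, also highest there. The following genes were named after their values were seen. Cnn2, a calponin, was at 178, 262 and 715 CPM in Ptger4-ON and 242, 392 and 989 CPM in Ptger4-OFF. Ctgf was at 41.8, 54.6 and 493 CPM in Ptger4-ON and 77.3, 59.5 and 231 CPM in Ptger4-OFF. Thbs1, which activates latent transforming growth factor beta, was at 387, 535 and 599 CPM in Ptger4-ON and 325, 721 and 932 CPM in Ptger4-OFF. These 3 genes had their highest level in the high group of both libraries. The chemokine Cxcl12 did so as well, at 67.9, 87.4 and 106 CPM in Ptger4-ON and 80.5, 172 and 325 CPM in Ptger4-OFF.

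Inflammatory and secretory genes were higher in the low group. The inflammatory list was at 11332, 8109 and 6050.2 CPM in Ptger4-ON and 12264, 8387 and 6972 CPM in Ptger4-OFF, and its leading gene Saa3, an acute-phase serum amyloid, was at 7032, 4636 and 3508 CPM in Ptger4-ON and 7916, 3768 and 3851 CPM in Ptger4-OFF. Spp1 was at 2137, 1693 and 443 CPM in Ptger4-ON and 1909.8, 1716 and 1163 CPM in Ptger4-OFF, and Dcn at 5909, 4559 and 3423 CPM in Ptger4-ON and 5246, 4777 and 4538 CPM in Ptger4-OFF. Mgp itself peaked in the middle group of both libraries, at 3579, 5275 and 1213 CPM in Ptger4-ON and 4245, 6062 and 4091 CPM in Ptger4-OFF. Mitotic (G2/M) genes were also concentrated in the low group, at 2591, 1365 and 1253 CPM in Ptger4-ON and 2164, 529 and 264 CPM in Ptger4-OFF. Shares of a fixed total are compared here, so a cell with a large share of contractile transcripts has less room for others, and the part of this in the values was not tested.

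**Figure D3:**
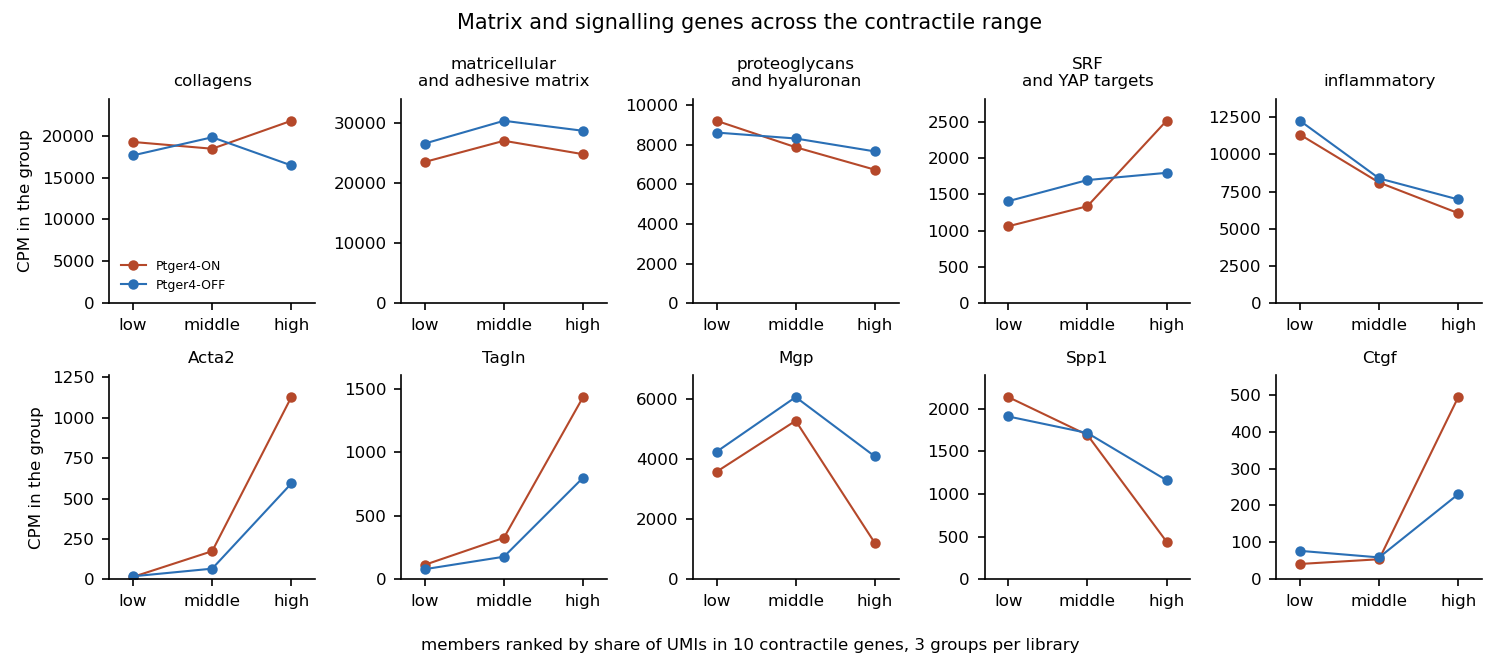
Summed level in CPM of 10 genes or gene lists in cells of the low, middle and high contractile groups of each library, as points joined by lines, without intervals. The inflammatory list is highest in the low group of both libraries (11332 and 12264 CPM), and collagens show no common order.

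The largest ratios between the libraries were taken among named genes at 100 CPM or more in either library whose level was at least that of the epithelial barcodes of the library where they were higher. They included secreted factors on both sides. Interleukin-33 (Il33), a nuclear cytokine released by damaged stromal cells, was at 181 CPM in Ptger4-ON and 527 CPM in Ptger4-OFF, 2.90-fold (counting interval 2.34 to 3.63) higher in Ptger4-OFF. It was detected in 23.1% of cells (95% interval 14.3 to 34.0) in Ptger4-ON and 37.3% (29.1 to 46.1) in Ptger4-OFF after thinning and in 3.63% and 0.106% of epithelial barcodes. The neutrophil chemokine Cxcl1 was at 76.8 and 174 CPM, with 43.2% and 31.9% of its UMIs in 1 barcode per library, and at 44.4 and 119.7 CPM without them. Cxcl12, which binds the receptor Cxcr4, was at 87.2 and 177 CPM, 2.03-fold (counting interval 1.46 to 2.86) higher in Ptger4-OFF. In Ptger4-ON the Wnt modulator Dkk2 was at 139.6 CPM, against 38.3 CPM in Ptger4-OFF, 3.64-fold (counting interval 2.38 to 5.70) higher, and 1 barcode held 41.2% of its Ptger4-ON UMIs. Without the richest barcodes it was at 83.8 and 25.1 CPM. Il33 and Dkk2 kept at least 1.5-fold under all 18 alternative settings, and the log2 ratio of Cxcl12 was 0.11 at a Ptgs2 limit of 0.02% in place of 1.01.

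**Figure D4:**
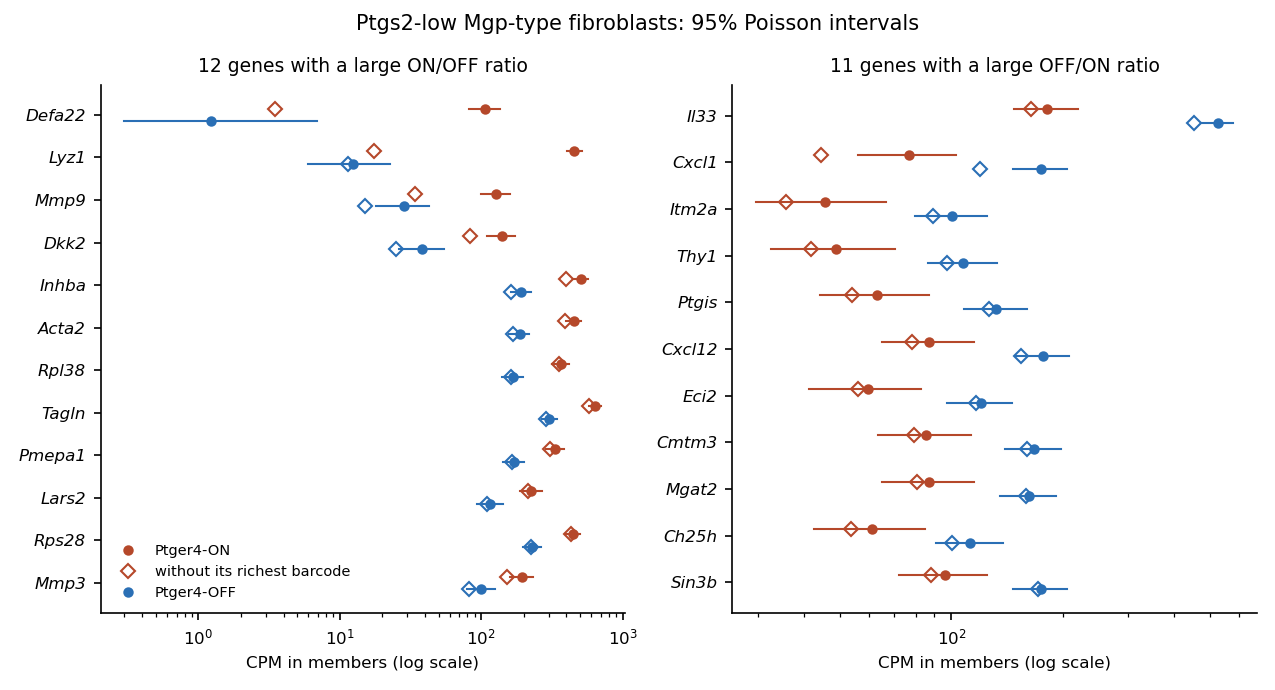
Level in CPM, on a log axis, of the 12 genes with the largest ratio in favour of Ptger4-ON and 11 of the 12 in favour of Ptger4-OFF, among genes at 100 CPM or more in either library and at least as high as in the epithelial barcodes, with 95% Poisson counting intervals; hollow diamonds give the level without the richest barcode of each library. The diamonds of Lyz1, Defa22, Mmp9 and Dkk2 fall below the Ptger4-ON points, while those of Acta2, Tagln and Il33 stay near them.

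Some of the 12 genes so taken for Ptger4-ON were also higher in its epithelial barcodes. The ribosomal protein gene Rpl38 was at 365 and 168 CPM in these fibroblasts and at 351 and 140.3 CPM in epithelial barcodes, and Rps28 at 445 and 229 CPM and 287 and 165 CPM. Lars2, the mitochondrial leucyl-tRNA synthetase, was at 227 and 116 CPM and 35.5 and 26.2 CPM. These 3 genes, like Pmepa1 above, thus moved with the library in other cells too.

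On the Ptger4-OFF side, a surface glycoprotein of fibroblasts, Thy1, was at 48.8 and 108 CPM, 2.20-fold (counting interval 1.42 to 3.50) higher, and the membrane protein gene Itm2a at 45.4 and 100.2 CPM. The others were of diverse function. The fatty-acid isomerase Eci2 was at 59.3 and 120.0 CPM and the glycosyltransferase Mgat2 at 87.2 and 162 CPM. The corepressor Sin3b was at 96.0 and 174 CPM, the membrane protein gene Cmtm3 at 85.5 and 167 CPM and the cholesterol 25-hydroxylase Ch25h at 61.1 and 113 CPM. Mgp, though used by the rule, was 1.47-fold (counting interval 1.39 to 1.55) higher in Ptger4-OFF here and lower in the high-Ptgs2 class, at 3899 and 2964 CPM.

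The prostaglandin genes outside Ptgs2 were unevenly detected. Prostacyclin synthase (Ptgis) was at 62.8 and 132 CPM, 2.11-fold (counting interval 1.43 to 3.17) higher in Ptger4-OFF, and Ptges, the inducible prostaglandin E synthase, was at 33.1 and 64.3 CPM, 1.94-fold (counting interval 1.13 to 3.48) higher. Of 6 measured genes of the list these 2 were past the fold and 0 were higher in Ptger4-ON. The phospholipase Pla2g4a, which releases the precursor arachidonic acid, was at 201 and 204 CPM, and Ptgs1, the constitutive cyclooxygenase, at 15.7 and 17.3 CPM. Receptors were almost not captured: Ptger4, the inhibitor's target, had 2 UMIs in Ptger4-ON and 0 in Ptger4-OFF, Ptger2 had 0 and 3, and Ptger3 had 1 and 4. A difference in Ptger4 was not detectable at this depth. Ptgis kept at least 1.5-fold under all 18 alternative settings, and the log2 ratio of Ptges was 0.26 at a Ptgs2 limit of 0.1% in place of 0.93.

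Of 15 interferon-stimulated genes listed, 5 were measured, 2 were at least 1.5-fold higher in Ptger4-OFF and 0 in Ptger4-ON, with a median log2 ratio of 0.55. The list summed to 1877 and 2837 CPM here, so the difference was not particular to this class. It summed to 1847 and 3020 CPM in high-Ptgs2 cells and to 2153 and 3685 CPM in Grem1-type cells. In epithelial barcodes the sum was level, at 336.3 and 336.5 CPM. Ifitm3, a membrane protein that restricts viral entry, was at 1082 and 1671 CPM, 1.54-fold (counting interval 1.40 to 1.70) higher, and Ifi27 was at 326 and 541 CPM, 1.66-fold (counting interval 1.39 to 1.98) higher. After thinning, Ifitm3 was detected in 75.6% of cells (95% interval 64.6 to 84.7) in Ptger4-ON and 92.5% (86.7 to 96.4) in Ptger4-OFF, and in epithelial barcodes in 5.44% and 16.8%, also higher in Ptger4-OFF. Of 13 inflammatory genes, 3 were past the fold in Ptger4-OFF (Il33, Cxcl1 and Cxcl12) and 0 in Ptger4-ON, with a median log2 ratio of 0.13. Of 9 crypt-support signals, 1 was past the fold in Ptger4-OFF, the keratinocyte growth factor Fgf7 at 43.6 and 68.0 CPM, and 2 in Ptger4-ON, Dkk2 among them. At a Ptgs2 limit of 0.02% the log2 ratios of Ifitm3 and Ifi27 were 0.31 and 0.41 in place of 0.63 and 0.73, and that of Fgf7 at a limit of 0.1% was 0.01 in place of 0.63.

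Mitotic transcripts summed over cells were higher in Ptger4-ON, although the share of cells holding them was similar and the median cell held less. Of 17 measured G2/M genes 7 were at least 1.5-fold higher in Ptger4-ON and 0 in Ptger4-OFF, and the list summed to 1736 and 1087 CPM. Top2a, the topoisomerase of mitotic chromosomes, was at 199 and 115 CPM, and the spindle gene Prc1 at 169 and 74.2 CPM. After thinning, 12.8% of 78 cells (95% interval 6.32 to 22.3) and 11.9% of 134 (6.98 to 18.7) held at least 3 UMIs of the list. The shares of cells were close while the summed levels differed. In the median cell the list held 0.0038% of UMIs in Ptger4-ON and 0.0175% in Ptger4-OFF, and in the highest cell 1.92% and 1.47%. Without the 3 cells richest in epithelial relative to fibroblast UMIs, the log2 ratio of Top2a was -0.29 in place of -0.79. That ratio was -0.38 without Scrublet doublets, -0.37 with equal weight per cell and -0.54 with Mgp-side genes at least 3 times the Grem1-side genes. Without cells in G2/M, a setting that selects against its own UMIs, Top2a was at -0.084.

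Against the high-Ptgs2 Mgp-type cells, these cells had more transcripts of many mitotic genes and less Ctgf. The rule separated the classes by Ptgs2, and the comparison of classes is a description without a test. Among 6615 genes, 124 were at least 1.5-fold higher in these cells in both libraries (1.87%) and 80 lower (1.21%). Of 20 G2/M genes 13 were higher: Prc1 was at 169 against 45.8 CPM in Ptger4-ON and 74.2 against 28.3 CPM in Ptger4-OFF, and Top2a at 199 against 62.1 CPM in Ptger4-ON and 115 against 66.0 CPM in Ptger4-OFF. The share of cells with at least 3 G2/M UMIs after thinning, 12.8% and 11.9% here, was 7.14% and 11.5% in the high-Ptgs2 class, so in Ptger4-OFF it was nearly equal. Igfbp4, an insulin-like growth factor binding protein, was at 112 against 47.3 CPM in Ptger4-ON and 109 against 41.5 CPM in Ptger4-OFF. On the lower side stood Ctgf, at 202 against 526 CPM in Ptger4-ON and 111 against 206 CPM in Ptger4-OFF. The G-protein regulator Rgs16 was at 50.6 against 154 CPM in Ptger4-ON and 49.5 against 125 CPM in Ptger4-OFF, and the early-response gene Phlda1 at 147 against 307 CPM in Ptger4-ON and 126 against 298 CPM in Ptger4-OFF. Of 17 immediate-early genes 0 were higher and 4 lower, and of 13 targets of serum response factor and YAP 0 were higher and 3 lower. Contractile genes were mostly level, with 0 of 25 higher and 1 lower in both libraries. Acta2 in the high-Ptgs2 class was at 473 and 441 CPM, against 452 and 187 CPM in these cells, so the classes were closer to each other in Ptger4-ON than in Ptger4-OFF.

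Against the Grem1-type fibroblasts the separation was wider, with 220 of 6331 genes at least 1.5-fold higher (3.47%) and 206 lower (3.25%) in both libraries, the rule genes included. Outside the rule genes, Spp1 was at 1408 against 169 CPM in Ptger4-ON and 1645 against 193 CPM in Ptger4-OFF, and the mesenchymal transcription factor Prrx1 at 270.4 against 48.8 CPM in Ptger4-ON and 282 against 71.6 CPM in Ptger4-OFF. The amino-acid transporter Slc7a2 was at 155 against 44.8 CPM in Ptger4-ON and 151 against 43.0 CPM in Ptger4-OFF, and Csgalnact1, which starts chondroitin sulphate chains, at 201 against 32.6 CPM in Ptger4-ON and 184 against 28.6 CPM in Ptger4-OFF. The Grem1-type cells held more of the epidermal growth factor receptor ligand Ereg, at 27.9 against 273 CPM in Ptger4-ON and 28.4 against 315 CPM in Ptger4-OFF, where the value of these cells comes first. Ptgs1 was at 15.7 against 153 CPM in Ptger4-ON and 17.3 against 126 CPM in Ptger4-OFF, and the membrane glycoprotein gene Gpm6b at 33.1 against 285 CPM in Ptger4-ON and 23.5 against 198 CPM in Ptger4-OFF. Without the genes that the rule used to separate the classes, 1 of 19 inflammatory genes was higher and 8 lower in these cells, and of 9 crypt-support signals 1 was higher and 4 lower. Collagens were divided, with 3 of 17 higher and 2 lower, and of 24 contractile genes 0 were higher and 2 lower. Of 22 G2/M genes 3 were higher and 0 lower. The G2/M list summed to 1736 against 1658 CPM in Ptger4-ON and 1087 against 592 CPM in Ptger4-OFF, so in Ptger4-ON these 2 classes were close. Acta2 in Grem1-type cells was at 234 and 353 CPM, higher in Ptger4-OFF, opposite to these cells.

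**Figure D5:**
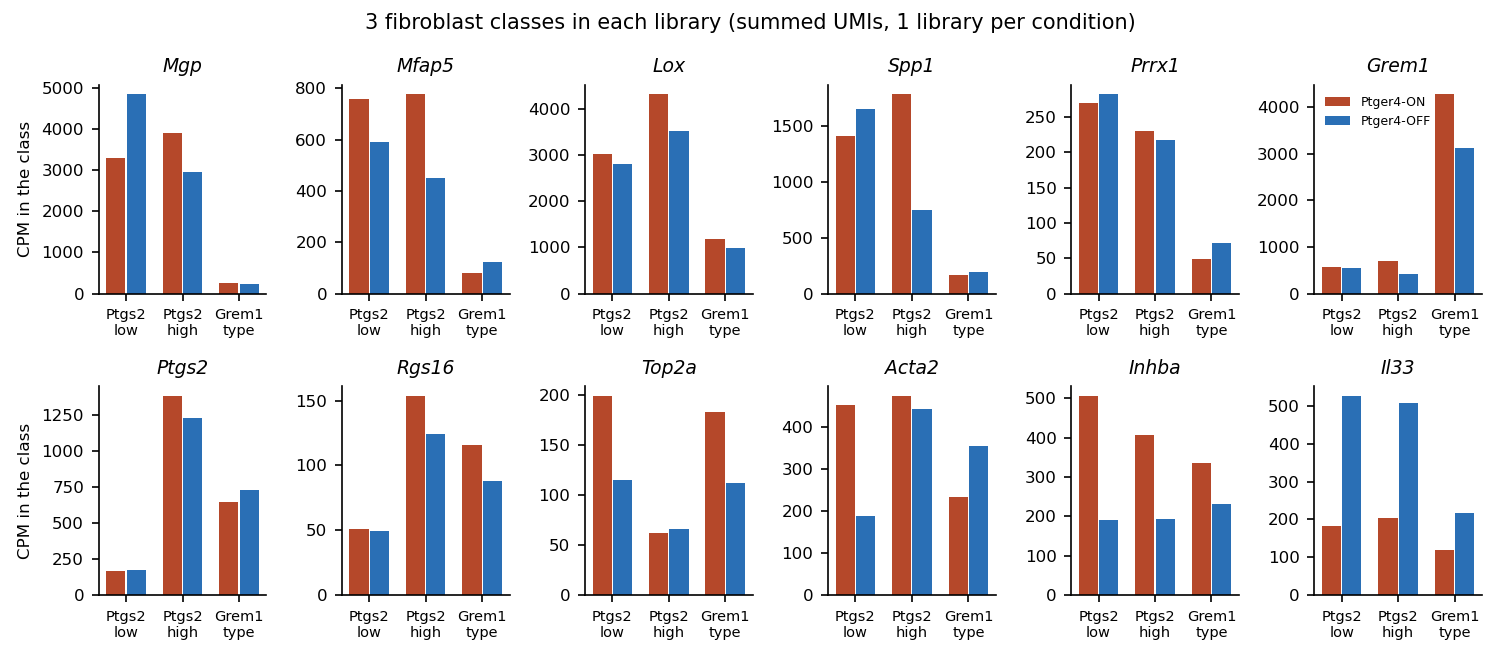
Level in CPM of 12 genes in the low-Ptgs2 Mgp-type, high-Ptgs2 Mgp-type and Grem1-type fibroblasts of each library, as bars from 0 without intervals. Mgp, Mfap5 and Spp1 are lowest in Grem1-type cells, Rgs16 is highest in the high-Ptgs2 class in both libraries, and Il33 is higher in Ptger4-OFF in all 3 classes.

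Within the class, the genes that varied most between cells after thinning to 2000 UMIs, apart from the Paneth-cell genes of the barcode above and Malat1, a nuclear RNA, included secreted products and metal-binding proteins. Saa3 had a variance 32.0 times its mean, with median counts of 1 and 2 UMIs and highest counts of 94 and 98. Mgp had a variance 26.1 times its mean, with medians of 2 and 4 and highest counts of 69 and 112. Spp1 had a variance 21.5 times its mean, with a median of 0 in both libraries and highest counts of 30 and 62. In each of the 3 genes a few cells held counts far above the median. The metallothioneins Mt2 and Mt1 and the ferritin chain Fth1 followed, at 13.9, 10.5 and 9.14 times their means. Mgp and Spp1 shares had Spearman correlations of 0.24 over 78 cells and 0.37 over 134, as a description of cells that share a library.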

How the data were processed

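The deposited tables, 1 per library, hold raw UMI counts of each gene in each barcode, not normalized; the labels name Drop-seq, a method that counts UMIs, and no header states the unit. STAR 2.6 and the genome build mm10 are named in the submitters' processing notes, and the sources used here do not give the counting tool, its use of strand, the annotation or how barcodes were selected. Reads of overlapping genes and of near-identical copies could not be told apart.

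Barcodes were filtered and classified by the rule above with Python 3.11.15, numpy 2.4.6, pandas 2.3.3 and scipy 1.17.1. The members and the gene lists were chosen with earlier results of these data known. UMIs were summed per class and library and scaled to 1000000. Log2 ratios had a pseudocount of 0.5 UMI added, and folds were computed without it. Genes with at least 50 UMIs over both libraries were compared, and 1.5-fold was the size used. Poisson, conditional binomial (ratios) and Clopper-Pearson (shares) intervals are exact at 95%, for counting error only. With 1 library per condition no test was made and no p-value is given.

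Genes were named by rule: the 12 largest ratios in each direction among genes not known by a provisional symbol, with at least 50 UMIs and 100 CPM or more in either library and a level at least that of the epithelial barcodes of the library where they were higher, in each list the 4 with the largest ratios and, in matrix and contractile lists, the 5 highest by CPM, the 12 most variable genes (variance over mean after thinning, mean of at least 0.5 UMI), and the 8 largest per direction against each other class, where the 100 CPM minimum was also applied. Genes outside this rule are named to complete a count or list, and some genes within it are not reported here. Doublets were not removed; Scrublet (scanpy 1.11.5) was an alternative and marked 6 and 4 barcodes in the libraries, 2 and 2 of them among these cells. Scripts were tested on simulated data. Alternatives changed the filters, the rule, scaling (TMM by edgeR 4.0.16 in R 4.3.3, median of ratios, equal weight per cell), the pseudocount, the minimum per gene and thinning, and leaving out the richest barcode per gene was added after seeing the data. Gene positions are from GENCODE on GRCm38 and promoter windows from RefSeq on GRCm38.p6; figures were drawn with matplotlib 3.10.9.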

Additional observations from a re-analysis of the deposited data

Results flagged for a closer look

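For 9 genes the difference between the libraries in these cells ran opposite to that in a neighbouring class of fibroblasts, by at least 1.5-fold on both sides. All 9 are among the 217 genes named by rule, and the share of all genes that ran opposite in this way is not given. The count is thus no result about the class. Ratios of the neighbouring classes are given without counting intervals, so their counting error is not shown. The difference between the classes was not tested, since each ratio rests on 1 library per condition. The number of alternative settings that end a ratio is given where there were any. Ratios are given as Ptger4-OFF over Ptger4-ON.

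Acta2 was at 0.413 in these cells and at 1.51 in Grem1-type fibroblasts. The metalloproteinase Mmp3 was at 0.517 in these cells and at 2.18 in Grem1-type fibroblasts, and Pmaip1, a mediator of apoptosis, was at 0.391 and 1.82. Fgf7 was at 1.56 in these cells, at 0.585 in high-Ptgs2 Mgp-type cells and at 0.5145 in Grem1-type cells. The glutathione-synthesis gene Gclc was at 1.71 and at 0.640 in Grem1-type cells, and the cholesterol-synthesis gene Sqle at 1.56 and 0.614. Lpl was at 1.51 in these cells and at 0.374 in high-Ptgs2 Mgp-type cells. In these cells the ratio was under 1.5-fold in at least 10 of 18 alternative settings for Lpl, both other scalings included, in at least 6 for Fgf7, 4 for Gclc, 3 for Sqle and 2 for Mmp3.

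Epcam, an epithelial gene that the fibroblast rule used, was at 0.437 in these cells and at 3.27 in high-Ptgs2 Mgp-type cells. Its direction in these cells reversed in 6 of 18 alternative settings, and without the richest barcode of each library it was at 27.0 and 29.9 CPM. The Paneth-cell gene Defa24 was at 0.0845 in these cells, where 1 barcode of Ptger4-ON gave 92.8% of its UMIs and its direction reversed in 5 settings, and at 1.78 and 1.76 in high-Ptgs2 and Grem1-type cells.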

How the results depend on the processing

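Across 18 alternatives for each of 217 named genes, 3669 of 3906 values lay within the counting interval of the reported ratio, 218 lay outside it and, of genes past 1.5-fold, 19 changed sign. The cause was not tested for any of them. The sign changes, as log2 ratios of Ptger4-OFF over Ptger4-ON, were these. Defa24 was at 0.40 with at least 4000 UMIs per cell, 0.22 with ties dropped, 0.72 with Mgp-side genes at least 3 times the Grem1-side genes, 0.43 with fibroblast genes at least 5 times the epithelial genes and 0.18 without the richest barcode. Epcam was at 0.37 with a Ptgs2 limit of 0.02%, 1.64 and 1.08 under the 3-times and 5-times rules, 0.71 without Scrublet doublets, 0.90 without cells in G2/M and 0.13 without the richest barcode. Gstm1 was at 0.054 with the 0.02% limit and 0.33 under the 3-times rule, and Ogn at -0.33 with the 0.02% limit. Cxcl5 was at -0.36 under the 3-times rule and -0.0051 after thinning. Mmp10 was at 0.38 under the 3-times rule, Defa22 at 1.03 under the 5-times rule and Prc1 at 3.84 without cells in G2/M. Prc1 is itself a G2/M gene, so leaving out cells in G2/M selects against its own UMIs. Its value there is not a result about Prc1. The share of these cells among fibroblasts was 21.6% and 27.65% with the 0.02% limit, 50% and 60.4% with a limit of 0.1%, and 26.2% and 35.8% under the 3-times rule, higher in Ptger4-OFF each time. The matricellular median was -0.039 with the 0.1% limit, 0.022 and 0.083 under the 3-times and 5-times rules and 0.23 without barcodes that end in an uncalled base or pair with a deeper one. The proteoglycan median was 0.20 under the 3-times rule, -0.074 with no minimum per gene and 0.28 after thinning, and the collagen median was -0.077 after thinning. The percentage of genes past the fold, higher in Ptger4-OFF and in Ptger4-ON, was 9.97 and 9.60 with a minimum of 20 UMIs, 21.2 and 19.6 with no minimum, 16.6 and 12.35 after thinning and 0.896 and 0.981 at 2-fold. With equal weight per cell it was 9.004 in Ptger4-OFF. For the log2 ratio of high over low contractile cells, the collagens were at 0.0899 with 2 equal groups and -0.069 after thinning in Ptger4-ON, and at 0.0207 and 0.0296 in Ptger4-OFF. Elastic-fibre genes were at 0.11 with 2 equal groups in Ptger4-OFF. In Ptger4-ON the matricellular genes were at 0.15 and 0.16 and the proteoglycans, with 2 equal groups, at -0.25. Inflammatory genes were at -0.37 with 2 equal groups and -1.50 after thinning in Ptger4-ON and at -0.52 with 2 equal groups in Ptger4-OFF. For all 33 gene lists together, 23 of 654 medians lay outside their intervals. Other scalings shifted all log2 ratios by -0.031 and -0.028. No paired analysis was possible because each condition has 1 library and the labels give no replicate numbers. With a median of 6194 and 5584.5 UMIs per cell, genes under about 50 UMIs in all, receptors such as Ptger4 among them, could not be compared.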

Other observations

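Of 17 measured genes of the unfolded protein response, 0 were at least 1.5-fold higher in either library, with a median log2 ratio (Ptger4-OFF over Ptger4-ON) of 0.11. Of 20 glycolysis and hypoxia genes 2 were past the fold in Ptger4-ON and 0 in Ptger4-OFF (median -0.04), and of 7 mitochondrially encoded genes 0 were past it (median -0.04). The 8 heat-shock genes, which can also respond to cell release, had a median of -0.26 with 0 past the fold, and the list summed to 2833 and 2259 CPM, 1.25-fold (95% counting interval 1.17 to 1.34) higher in Ptger4-ON. That list was also higher in Ptger4-ON in high-Ptgs2 cells (2812 and 2268 CPM), Grem1-type cells (2725 and 2091 CPM) and epithelial barcodes (3651 and 3084 CPM). Of 12 metallothionein and antioxidant genes 3 were past the fold in Ptger4-ON and 1 in Ptger4-OFF, among them Hmox1, the haem-degrading enzyme, at 438 and 240.0 CPM. Of 10 cholesterol-synthesis genes 2 were past the fold in Ptger4-OFF, including squalene epoxidase (Sqle) at 71.5 and 111 CPM, and the median was 0.20. Of 6 insulin-like growth factor and binding-protein genes 0 were past the fold, and of 7 measured G1/S genes 0 were.

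Among the genes known to respond to cyclic AMP, 4 of 20 were measured. Of these, 2 were at least 1.5-fold higher in Ptger4-OFF and 1 in Ptger4-ON, with a median log2 ratio of 0.275. Fos was at 68.0 and 142 CPM, higher in Ptger4-OFF, and Gadd45g at 269 and 167 CPM, higher in Ptger4-ON. The measured genes thus did not share 1 direction.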
